A study of Mus musculus with 15 samples.

Results

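The genes described are the collagen genes of mouse, taken as every gene whose symbol reads Col, a number, a and a number and that had at least 10 counts in total over 15 whole-brain libraries. All 44 genes with such a symbol, of 43629 genes listed, met this minimum. They comprised 11 fibrillar collagens, 6 basement-membrane collagens (the type IV chains) and 27 other collagens. The other collagens were 9 FACIT collagens (short molecules that sit on the surface of fibrils), 6 type VI chains, 4 transmembrane collagens, 3 short-chain collagens, 2 multiplexins, and Col7a1, Col26a1 and Col28a1.

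The study asked whether every-other-day feeding (EOD) alters what ageing does to the mouse, and in brain it compared transcript levels between ages and between diets. Every mouse was a wildtype C57BL/6J male, whole brain was the tissue, and each library came from 1 mouse. The 4 young AL mice were 3 months old and fed ad libitum, and the 3 young EOD mice were of the same age and received food only on alternate days. The 4 old AL mice and the 4 old EOD mice were 24 months old by the labels, while the methods of the study place the start of testing at a younger age. The feeding schedule, which the labels call intermittent fasting, began at 2 months of age, so that the young EOD mice had it briefly and the old EOD mice for most of their lives. The labels do not say which mice shared a cage or a litter, and p-values measure the spread between the mice as labelled.

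Collagens are proteins of the extracellular matrix in which 3 chains wind around each other. The winding needs glycine, the smallest amino acid, as the first of each triplet of residues, and it needs vitamin C dependent hydroxylation of proline. Fibrillar collagens form long uninterrupted rods that pack into fibrils, type IV chains have interrupted helices and form the sheet-like network of basement membranes, and FACIT, type VI and multiplexin collagens connect these structures to each other and to cells. Brain tissue holds little fibrillar collagen. Most of its fibrils lie in the meninges and around large vessels, whereas type IV collagen surrounds every capillary between endothelial cells, pericytes and astrocyte endfeet. Some transmembrane collagens are made by neurons.

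The glycine repeat is written in the coding sequence, where a glycine codon is GG followed by any base. The stretches below are from the Ensembl coding sequences (GENCODE mouse release 21, GRCm38) of Col1a2 and Col4a2. Col1a2 is a chain of the type I fibril, and Col4a2 is a type IV chain taken up in the age comparison below. Capitals mark the codons GGN that open a triplet, before or after an interruption.
Col1a2, codons 97 to 120, at the start of its longest repeat: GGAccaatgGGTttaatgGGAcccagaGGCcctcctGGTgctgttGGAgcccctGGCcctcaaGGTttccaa
Col4a2, codons 963 to 986, across the end of its longest repeat: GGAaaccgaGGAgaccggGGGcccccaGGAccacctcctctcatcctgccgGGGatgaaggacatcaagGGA
In the Col1a2 stretch 8 of 24 codons were glycine codons, evenly spaced, and in the Col4a2 stretch 6 of 24 were, with longer gaps after the fourth and the fifth. All 44 genes had a coding sequence. The longest unbroken run held 216 to 344 triplets in the 11 fibrillar genes (median 338), 39 to 66 in the 6 type IV genes (median 43.5) and 23 to 113 in the other 27 (median 45).

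**Figure D1:**
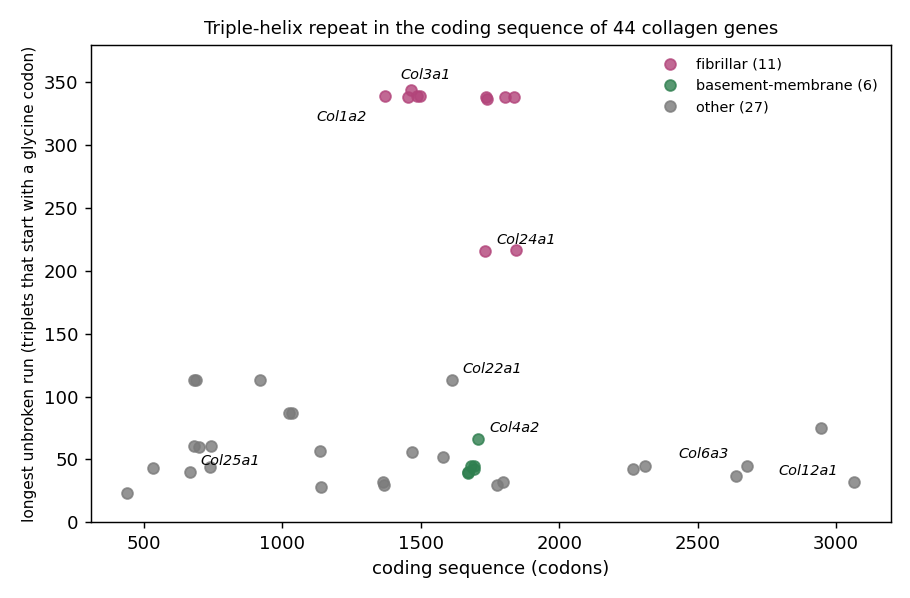
Longest unbroken run of triplets that begin with a glycine codon (vertical axis, triplets) against the length of the coding sequence (horizontal axis, codons), 1 point per gene, coloured by class. The 11 fibrillar genes lie at 216 to 344 triplets, and no gene of the other classes exceeds 113.

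The 6 type IV genes lie in 3 pairs that start close together and are transcribed in opposite directions. Col4a1 and Col4a2 overlap by their first 22 bases at chr8:11312805-11312826 (GRCm38), inside the first exon of each, with Col4a2 on the plus strand and Col4a1 on the minus strand. Col4a4 and Col4a3 are separated by 71 bases at chr1:82586850-82586920, an interval with 0 annotated exons in GENCODE release 21. Col4a6 and Col4a5 are 1308 bases apart on chromosome X. The bases are shown because both partners of a pair start from them.
Col4a1 and Col4a2 shared bases, Col4a2 strand: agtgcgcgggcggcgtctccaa
Col4a1 and Col4a2 shared bases, Col4a1 strand: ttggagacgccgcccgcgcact
Col4a4 to Col4a3 interval, Col4a3 strand: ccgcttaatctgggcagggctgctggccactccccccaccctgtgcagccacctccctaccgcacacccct
Of the 22 shared bases, 72.7% were G or C, and of the 71 bases 69%.

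Total counts on genes ranged from 5198748 to 13610729 per mouse (median 9886766). Levels are given as CPM, counts per 1000000 counts of the TMM-scaled library size. Collagens were shallowly covered, with 83 to 329 counts per mouse for Col4a2 but 2 to 26 for Col7a1. Young AL mouse 3 stood apart from the other mice, with a median correlation to them of 0.957 against 0.980 to 0.987. It had the most total counts but the fewest genes with a count, 17280 against 19054 to 20880 in the other mice. Among the collagens it had the highest CPM of Col6a4 (6.19) and Col24a1 (4.08), the lowest of Col15a1 (0.68), Col16a1 (0.755) and Col4a6 (0.227), and no count of Col6a5 and Col9a1 (all but Col15a1 chosen after their values were seen), where a count of 0 allows up to 3 counts or 0.227 CPM (counting error only). Old AL mouse 4 held pituitary transcripts, with a sum of 1040 CPM over 8 pituitary markers. The headers name 3 sequencing lanes of 5, 6 and 4 mice, and lane 3 held no young EOD mouse.

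Col25a1, a transmembrane collagen of neurons whose shed part is found in amyloid plaques, had the highest level of all 44 genes. Its level per kilobase of exon was 11.2 ± 1.05 CPM per kb (SD, n = 15), followed by the type VI chain Col6a1 at 4.93 ± 1.13 and by the type IV chains Col4a2 at 2.91 ± 0.543 and Col4a1 at 2.90 ± 0.664, which did not differ beyond their spread. Col4a2 (ENSMUSG00000031503) is at chromosome 8, bases 11312805 to 11449287 of the plus strand, Col4a1 (ENSMUSG00000031502) at bases 11198423 to 11312826 of the minus strand and Col25a1 (ENSMUSG00000058897) at chromosome 3, bases 130180891 to 130599877 of the plus strand. Col25a1 alone made up 32.3% ± 2.80 (SD, n = 15) of the CPM summed over all collagens, or 25.0% ± 2.37 per kilobase. The next levels were those of the FACIT chain Col9a3 (2.35 ± 0.363), the transmembrane Col23a1 (1.95 ± 0.346) and the short-chain Col8a1 (1.67 ± 0.424). The highest fibrillar genes were Col1a2 at 1.41 ± 0.237, Col11a2 at 1.147 ± 0.270, and Col1a1 at 0.730 ± 0.250. The class medians lay close together, at 0.397 CPM per kb for the fibrillar, 0.543 for the basement-membrane and 0.417 for the other collagens.

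Partners of 2 type IV pairs were alike in level and those of the other pair were not. The median ratio of Col4a1 to Col4a2 over the 15 mice was 1.01 in counts and 0.980 per kilobase. Col4a3 and Col4a4, which flank the 71-base interval, were both near the bottom, at 0.0836 ± 0.0212 and 0.0871 ± 0.0396 CPM per kb. Col4a5 stood at 0.842 ± 0.192 and its partner Col4a6 at 0.243 ± 0.0809. Col4a3, Col4a4 and Col4a6, like Col23a1 and Col8a1 above, are named outside the rule for named genes, for their level or pairing. The ratio of Col1a1 to Col1a2, which join as 2 chains to 1 in the type I trimer, had a median of 0.274 in counts and 0.507 per kilobase. Exon lengths are those of all annotated exons merged, such as 12136 bases for Col1a2, so that a gene with long alternative exons has a low value per kilobase.

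**Figure D2:**
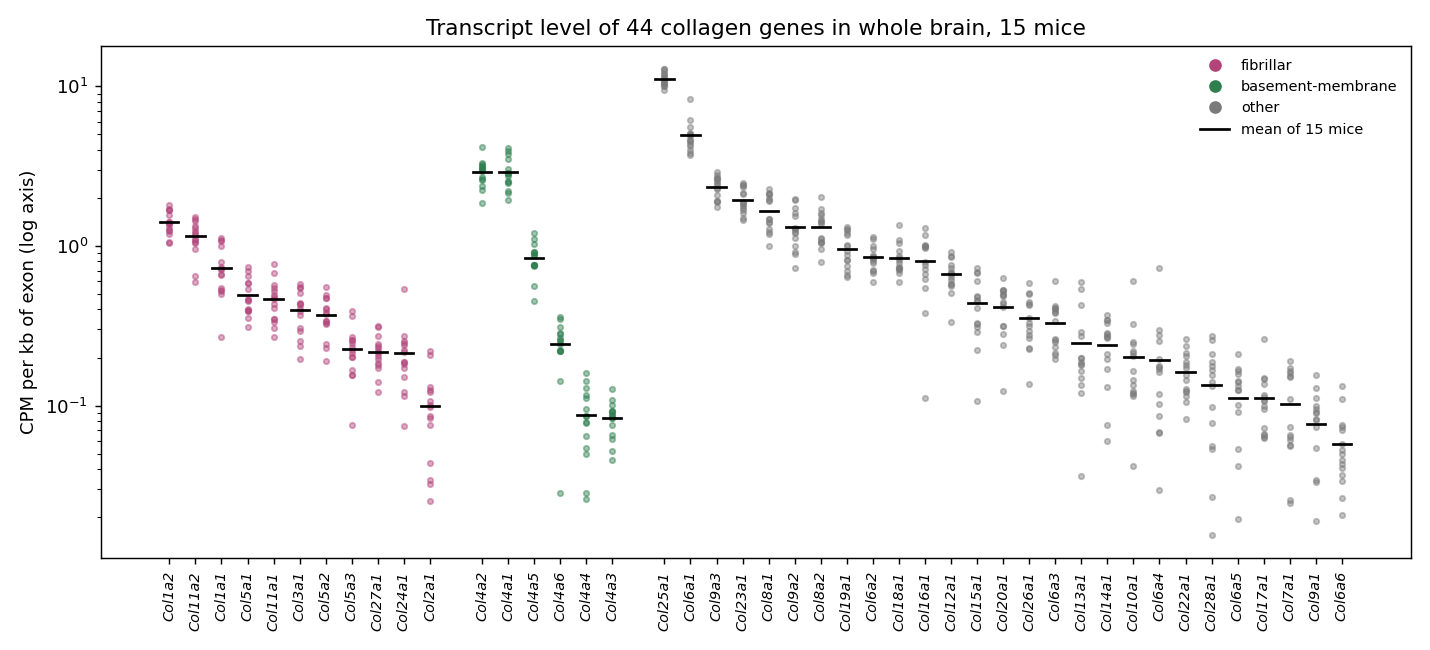
Level of each of the 44 collagen genes in CPM per kb of exon (log axis), by class, with 1 point per mouse (n = 15) and a bar at the mean. Counts of 0, found for Col6a5 and Col9a1 in young AL mouse 3, are not drawn. Col25a1 lies highest at 11.2 CPM per kb and Col6a6 lowest at 0.0578.

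Summed over its genes, the basement-membrane class went from the highest mean in young AL to the lowest in old EOD. The sum was mostly Col4a1 (2.90 CPM per kb over all 15 mice) and Col4a2 (2.91), against 7.07 for the 6 genes together. With age, 2 of the 6 genes were lower in both diets, 1 was higher in both and 3 were of opposite sign. In CPM per kb the sums were 8.96, 7.07, 6.17 and 9.41 in young AL mice, 7.90, 7.36 and 6.57 in young EOD mice, 7.43, 6.53, 7.60 and 6.15 in old AL mice, and 5.99, 7.17, 6.44 and 5.24 in old EOD mice. The group means were 7.90 ± 1.54 (SD, n = 4), 7.28 ± 0.672 (n = 3), 6.93 ± 0.700 (n = 4) and 6.21 ± 0.808 (n = 4) in that order, and all groups overlapped. Without young AL mouse 3 the young AL mean was 8.48 ± 1.24 (n = 3).

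The fibrillar sums followed the same order of group means, and all groups overlapped. They were 6.37 ± 0.867 CPM per kb in young AL, 5.87 ± 0.565 in young EOD, 5.66 ± 0.941 in old AL and 5.18 ± 0.870 in old EOD mice (SD, n = 4, 3, 4 and 4). The single sums ran from 5.45 to 7.53 in young AL mice and from 4.27 to 6.05 in old EOD mice. These groups overlapped through young AL mouse 3 alone, since the next lowest young AL sum was 6.13. Without that mouse the young AL mean was 6.68 ± 0.752 (n = 3). Relative to their level the other collagens differed least, with means of 32.1 ± 2.49, 32.7 ± 0.516, 32.6 ± 2.92 and 30.6 ± 2.37 in the same order. These sums are a description, and no test was made over a class.

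**Figure D3:**
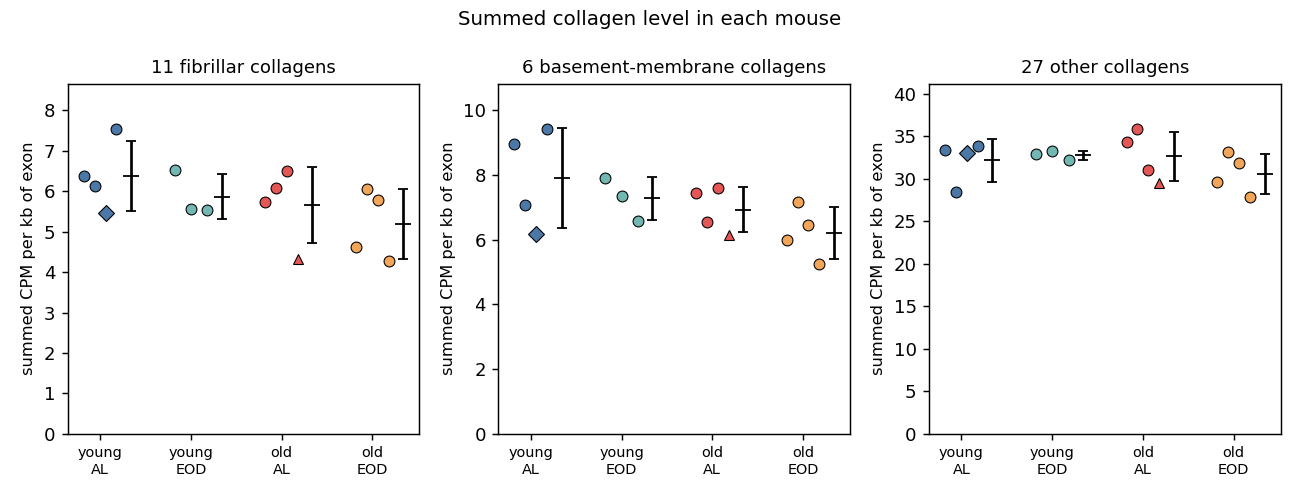
Summed level of the fibrillar, basement-membrane and other collagens in each mouse (CPM per kb of exon, axes from 0), by group, with the mean and SD at the right of each group (n = 4, 3, 4 and 4). The diamond is young AL mouse 3 and the triangle old AL mouse 4, and the groups overlap in all panels.

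The first question was which collagens differ between old and young brain. The 15864 genes that passed a filter on low counts entered 1 quasi-likelihood fit in edgeR, and a gene was called when its false discovery rate (FDR, Benjamini-Hochberg over all of them) was under 0.1. Of the 44 collagens 38 passed the filter. Col2a1, Col4a3, Col6a6, Col9a1, Col10a1 and Col17a1 did not, with 52 to 122 counts each over all mice. With age averaged over the diets, 1 of 38 collagens was called, Col4a2, against 2.3% of all genes tested, which is a similar share. Of the 38 collagens, 8 had an unadjusted p under 0.05 in edgeR. Without young AL mouse 3, 1 of 37 was called, again Col4a2, against 2.56% of all genes. Within AL mice edgeR called 0 of 38 collagens (6 with an unadjusted p under 0.05) against 1.09% of all genes, while DESeq2 called 1, Col6a3. Within EOD mice edgeR and DESeq2 called 0 (2 with an unadjusted p under 0.05 in edgeR) against 0.29%. Without young AL mouse 3 edgeR again called 0 collagens in AL and in EOD mice (9 and 4 with an unadjusted p under 0.05), against 1.03% and 0.484% of all genes. Here and below, counts at an unadjusted p stand without the share of all genes under that p. DESeq2 counts likewise stand without the share of all genes that DESeq2 called. Such counts are no result about the collagens or the gene lists as a whole.

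Col4a2, the partner of Col4a1 in the type IV network of capillaries, was lower on average in old mice, but its call varied between fits. Its CPM was 22.1, 20.1, 21.1 and 27.5 in young AL mice, 21.7, 20.98 and 19.6 in young EOD mice, 20.4, 20.1, 15.7 and 17.1 in old AL mice, and 14.9, 17.9, 17.3 and 12.3 in old EOD mice. All old EOD mice lay below all young mice, and 2 of 4 old AL mice lay within the young range. Averaged over the diets, the log2 fold change was -0.36 (SE 0.0990, 95% interval -0.57 to -0.15), so that it fell by 22.0%, with an edgeR FDR of 0.0797. Without young AL mouse 3 it was -0.37 (edgeR FDR 0.0627). The difference was -0.30 (SE 0.133) within AL mice and -0.41 (SE 0.146) within EOD mice, with an edgeR FDR of 0.464 and 0.655, so that neither diet alone gave a call.
The call was lost with sequencing lane in the model (log2 fold change -0.37, edgeR FDR 0.149), with the replicate number as a block (-0.36, edgeR FDR 0.161) and without both young AL mouse 3 and old AL mouse 4 (-0.35, edgeR FDR 0.118). Leaving out 1 mouse at a time kept the call in 6 of 15 fits (log2 fold change -0.39 to -0.30, edgeR FDR 0.0627 to 0.215), losing it without young AL mouse 1 or 4, any of the young EOD mice, old AL mouse 3 or 4, or old EOD mouse 1 or 4.

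Markers of vessel cells are given beside this difference. The 7 pericyte markers summed to 193 to 229 CPM in young and 169 to 209 CPM in old mice, and edgeR and DESeq2 called 0 of 7 with age averaged over the diets (3 with an unadjusted p under 0.05 in edgeR). Their median log2 fold change was -0.21. The 10 endothelial markers summed to 262 to 331 CPM in young and 269 to 301 CPM in old mice, with 0 of 10 called by both tools (4 with an unadjusted p under 0.05 in edgeR). The endothelial list held both directions. The mean of Tek was 19.5 CPM in young AL and 14.9 in old AL mice, and that of Emcn 6.07 and 8.02 (both chosen after their values were seen). No marker of either list was at 0 in any group. In bulk tissue fewer cells of a type and less RNA per cell cannot be told apart, and the part of pericyte content in the Col4a2 difference was not tested.

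Col4a1, the other chain of the same trimer, was not called. Its CPM was 28.2, 19.6, 13.2 and 26.8 in young AL mice, 24.0, 19.3 and 18.7 in young EOD mice, 20.6, 14.7, 25.7 and 17.3 in old AL mice, and 17.3, 19.6, 16.8 and 15.1 in old EOD mice. The lowest value of all was that of young AL mouse 3, and old and young mice overlapped. Its log2 fold change with age was -0.22 (SE 0.144, edgeR FDR 0.585), and -0.31 (SE 0.115, edgeR FDR 0.236) without that mouse. Col4a5, a chain on the X chromosome that is best known from the kidney, ran from 3.02 to 6.19 CPM in young and from 3.78 to 8.08 CPM in old mice, at a log2 fold change of +0.15 (SE 0.175, edgeR FDR 0.795).

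Nid1, nidogen-1, which links the type IV network to laminin, was the basement-membrane partner that fell. Its CPM was 14.5, 11.6, 16.9 and 13.9 in young AL mice, 13.04, 16.3 and 14.6 in young EOD mice, 11.2, 8.27, 10.2 and 6.98 in old AL mice, and 9.21, 10.5, 13.4 and 8.56 in old EOD mice. Every old AL mouse lay below every young mouse, and 1 old EOD mouse lay within the young range. Averaged over the diets, Nid1 had a log2 fold change of -0.57 (SE 0.127, edgeR FDR 0.0206), and of -0.52 (edgeR FDR 0.0312) without young AL mouse 3. The difference was -0.66 (SE 0.174) within AL mice and -0.49 (SE 0.184) within EOD mice. With an edgeR FDR of 0.102 and 0.726, neither diet alone gave a call in edgeR.

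The type I chains Col1a2 and Col1a1 were lower on average in old mice without a call. By group means, 6 of the 11 fibrillar genes were lower with age in both diets, 2 higher in both and 3 of opposite sign. Col1a2 ran at 19.0, 20.2, 14.4 and 22.0 CPM in young AL mice, 17.2, 15.8 and 20.6 in young EOD mice, 16.5, 15.1, 16.6 and 12.9 in old AL mice, and 12.7, 20.5, 17.1 and 15.2 in old EOD mice. Every group overlapped with every other, the AL groups through young AL mouse 3 alone, since the other young AL mice lay above all old AL mice. For age averaged over the diets Col1a2 stood at -0.23 (SE 0.115, edgeR FDR 0.451) on the log2 scale, and at -0.28 (SE 0.104, edgeR FDR 0.237) without young AL mouse 3. Col1a1, its partner in type I collagen, ran from 3.44 to 7.11 CPM in young and from 1.77 to 7.38 CPM in old mice, with a log2 fold change of -0.44 (SE 0.230, edgeR FDR 0.473). Its highest and its lowest value both belonged to old AL mice, and the lowest was that of old AL mouse 4. Of the 10 tested fibrillar genes 1 had an unadjusted p under 0.05 and 0 were called, and their log2 fold changes ran from -0.67 to +0.31.

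Col3a1, the type III chain of vessel walls, separated the AL groups. Its CPM was 4.34, 5.41, 4.23 and 5.69 in young AL mice against 4.23, 2.89, 3.03 and 1.93 in old AL mice, with 4.230 CPM in young AL mouse 3 and 4.228 CPM in old AL mouse 1 as the nearest values. It was 5.34, 3.61 and 2.497 in young EOD mice and 4.02, 5.01, 3.87 and 2.31 in old EOD mice, which overlapped. It differed by -0.73 on the log2 scale (SE 0.287) within AL mice and by -0.03 (SE 0.308) within EOD mice, with an edgeR FDR of 0.389 and 0.996. The AL difference without young AL mouse 3 was -0.80 (SE 0.291, edgeR FDR 0.411). The difference between the diets was tested as an interaction and had a log2 value of 0.69 (SE 0.422, edgeR FDR 0.9998).

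Col6a3 (ENSMUSG00000048126, chromosome 1, bases 90765923 to 90843971 of the minus strand), the large chain that completes the type VI beaded filament, had the smallest p of all collagens for age in AL mice. Its CPM was 3.01, 2.57, 2.49 and 2.34 in young AL mice, 2.77, 3.09 and 4.86 in young EOD mice, 4.73, 7.22, 4.54 and 3.11 in old AL mice, and 4.86, 5.01, 4.05 and 4.62 in old EOD mice. The AL groups did not overlap, and 1 young EOD mouse lay within the range of the old mice. The log2 fold change of Col6a3 was +0.90 (SE 0.260, edgeR FDR 0.150) within AL mice and +0.64 (SE 0.191, edgeR FDR 0.120) averaged over the diets, short of the threshold in both. The values without young AL mouse 3 were +0.88 (edgeR FDR 0.237) and +0.63 (edgeR FDR 0.119).
It passed the threshold for age averaged over the diets with lane in the model (log2 fold change +0.72, edgeR FDR 0.0907), by DESeq2 (adjusted p 0.0758), and without old AL mouse 4 (+0.74, edgeR FDR 0.0470) or young EOD mouse 3 (+0.78, edgeR FDR 0.0714). Of 15 fits with 1 mouse left out, these 2 alone called Col6a3 for age averaged over the diets (edgeR FDR 0.0470 to 0.317). With the replicate block its edgeR FDR was 0.153. Without old AL mouse 2, which had the highest value, its log2 fold change was +0.51 averaged over the diets (edgeR FDR 0.251). Within AL mice it was then +0.65 (edgeR FDR 0.447). Old AL mouse 4, the mouse with pituitary transcripts, had the lowest value of the old mice, and the part of that tissue was not tested.

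The 11 meningeal and perivascular fibroblast markers, cells that make type I and type VI collagen, summed to 242 to 318 CPM in young and 239 to 348 CPM in old mice, with 0 of 11 called by edgeR and DESeq2 with age averaged over the diets (1 with an unadjusted p under 0.05 in edgeR). Choroid plexus markers varied more, from 347 to 984 CPM in young and from 606 to 1251 CPM in old mice, also with 0 of 8 called by both (1 with an unadjusted p under 0.05 in edgeR). Of the fibroblast markers Igf2 and Pdgfra had the highest levels (94.5 and 75.0 CPM over all mice), so the fibroblast sum mostly followed them. The part of fibroblasts and choroid plexus in the collagen values was not tested.

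The partners of Col6a3 in the type VI filament had age differences near 0. Col6a1 had a mean of 22.4 ± 3.8 CPM in young AL (SD, n = 4), 21.4 ± 0.751 in young EOD (n = 3), 23.2 ± 9.10 in old AL (n = 4) and 19.3 ± 2.35 in old EOD mice (n = 4). The wide spread of old AL mice came from old AL mouse 2 at 36.3 CPM, the highest value of any mouse. On the log2 scale the age difference was -0.05 (SE 0.137) for Col6a1 and +0.07 (SE 0.150) for Col6a2, with an edgeR FDR of 0.928 and 0.912, and the sign of each turned when single mice were left out.

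Col7a1, which forms the anchoring fibrils that fix epithelia to the matrix, was low in whole brain and separated the AL groups. Its CPM was 1.69, 1.65, 1.96 and 1.76 in young AL mice, 1.13, 1.55 and 0.263 in young EOD mice, 0.622, 0.656, 0.757 and 0.252 in old AL mice, and 0.670, 0.569, 1.57 and 0.577 in old EOD mice. These values rest on 2 to 26 counts per mouse. Old AL mice all lay below young AL mice, whereas young and old EOD mice overlapped. Within AL mice the log2 fold change of Col7a1 was -1.70 (SE 0.491, edgeR FDR 0.152), and -1.66 (SE 0.487, edgeR FDR 0.187) without young AL mouse 3.

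Groups that do not overlap were counted over all 44 collagens. Old and young AL mice did not overlap for 4 collagens, of which Col6a3 and Col17a1 were higher and Col3a1 and Col7a1 lower in old mice, and 3 of the 38 tested ones, against 4.56% of all genes tested. Old and young EOD mice did not overlap for 3, Col4a2, Col19a1 and Col26a1, all tested and all lower in old mice, against 9.04%. Col17a1, Col19a1 and Col26a1 are outside the rule for named genes and were chosen after their values were seen. Col26a1, whose role is little known, ran at 2.98, 2.06 and 2.497 CPM in young EOD mice and at 1.34, 0.797, 1.84 and 1.54 CPM in old EOD mice. Col19a1, a FACIT collagen made by interneurons, ran at 8.32, 6.36 and 6.83 CPM in young EOD mice and at 5.61, 6.03, 4.79 and 4.43 CPM in old EOD mice.

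**Figure D4:**
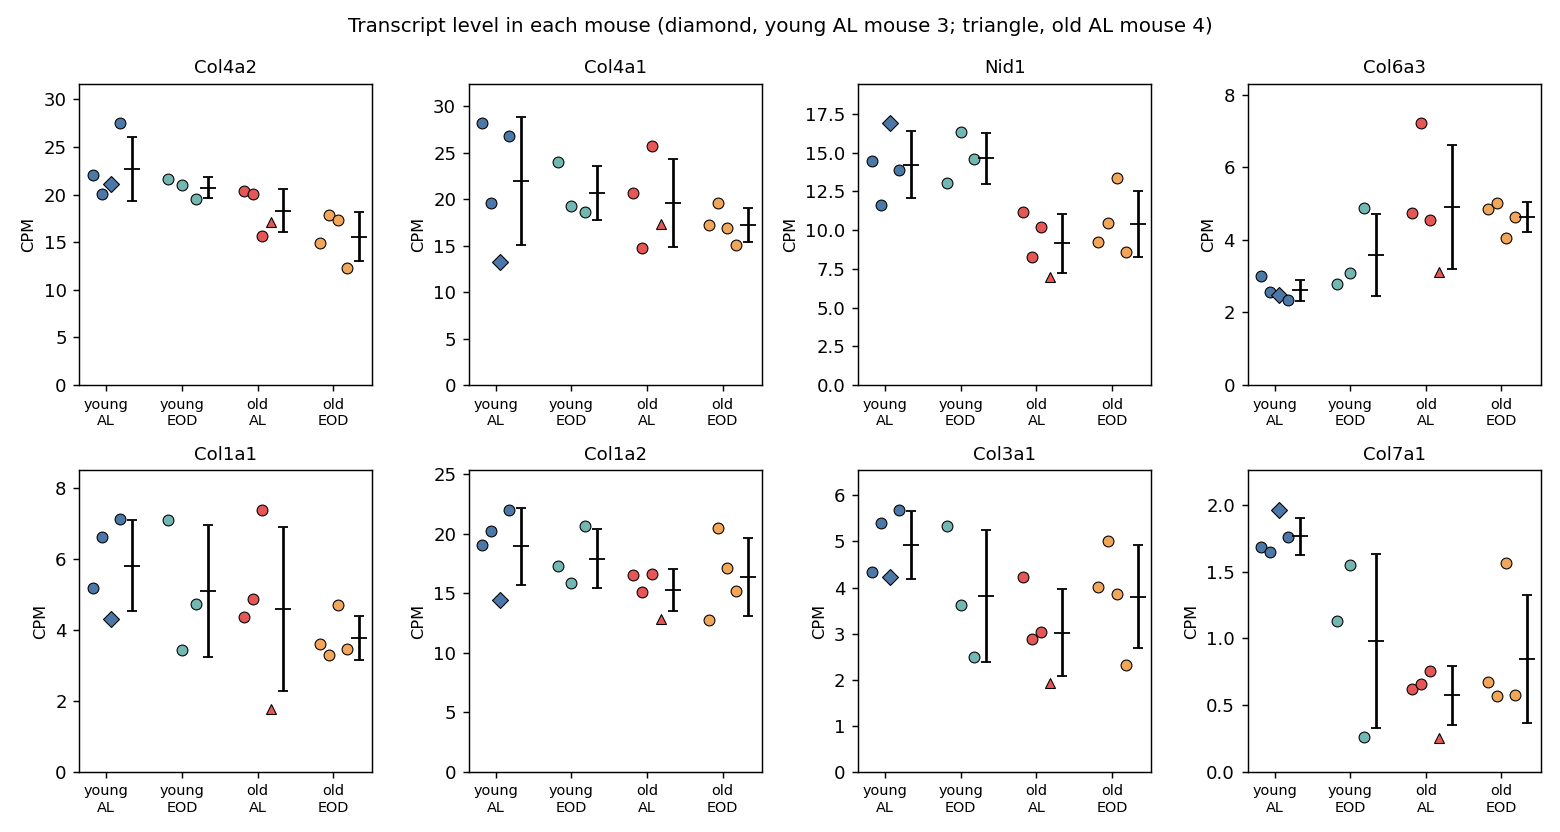
CPM of Col4a2, Col4a1, Nid1, Col6a3, Col1a1, Col1a2, Col3a1 and Col7a1 in each mouse (axes from 0), by group, with the mean and SD at the right of each group (n = 4, 3, 4 and 4). The diamond is young AL mouse 3 and the triangle old AL mouse 4. For Col4a2 all old EOD mice lie below all young mice, and for Col6a3 and Col7a1 the AL groups do not overlap.

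Col25a1, Col9a3 and Col11a2, named for their level, had age differences near 0. Col25a1 had 106, 92.5, 110 and 97.2 CPM in young AL mice, 118, 106 and 111 in young EOD mice, 118, 96.4, 88.3 and 101 in old AL mice, and 93.4, 115, 100.4 and 95.04 in old EOD mice. All groups overlapped, and Col25a1 had a log2 fold change with age of -0.07 (SE 0.0669, 95% interval -0.21 to 0.06, edgeR FDR 0.722). Col9a3, a chain of the FACIT type IX, had a log2 fold change of +0.07 (SE 0.125) and Col11a2, a minor fibrillar chain, one of -0.04 (SE 0.178), with an edgeR FDR of 0.892 and 0.959. For both the sign turned when single mice were left out.

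Col8a2, a short-chain collagen of endothelial and corneal basement membranes that lies between Col9a3 and Col11a2 in level, had a larger difference (chosen after its values were seen). Its CPM was 4.70, 3.57, 6.42 and 5.02 in young AL mice, 4.72, 6.19 and 4.73 in young EOD mice, 7.21, 6.30, 9.08 and 4.29 in old AL mice, and 7.04, 7.62, 4.97 and 6.64 in old EOD mice. Old and young mice overlapped in both diets. Its log2 fold change with age was +0.37 (SE 0.172, edgeR FDR 0.398), and +0.46 (SE 0.166, edgeR FDR 0.231) without young AL mouse 3, and it was called without both that mouse and old AL mouse 4. Col19a1, at a similar level per kilobase, stood at -0.34 (SE 0.159, edgeR FDR 0.396).

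The multiplexins Col15a1 and Col18a1, proteins of vascular basement membranes whose ends are released as restin and endostatin, were not called. Col15a1 had a mean of 2.74 ± 1.52 CPM in young AL, 3.42 ± 1.05 in young EOD, 3.05 ± 1.20 in old AL and 2.04 ± 0.602 in old EOD mice (SD, n = 4, 3, 4 and 4), with a log2 fold change with age of -0.27 (SE 0.299, edgeR FDR 0.784). Young AL mouse 3 had its lowest value, and without that mouse the young AL mean was 3.42 ± 0.807 (n = 3) and the log2 fold change -0.44 (SE 0.221, edgeR FDR 0.457). By diet it was +0.21 (SE 0.401) in AL and -0.75 (SE 0.444) in EOD mice, and the AL value turned to -0.12 without young AL mouse 3. Col18a1 had 5.49 ± 1.48, 5.05 ± 0.400, 6.999 ± 1.66 and 5.84 ± 0.9995 in the same order, with a log2 fold change of +0.27 (SE 0.160, edgeR FDR 0.543), at +0.32 in AL and +0.22 in EOD mice. Over the 38 tested collagens the age difference ran from -1.16 to +0.65.

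**Figure D5:**
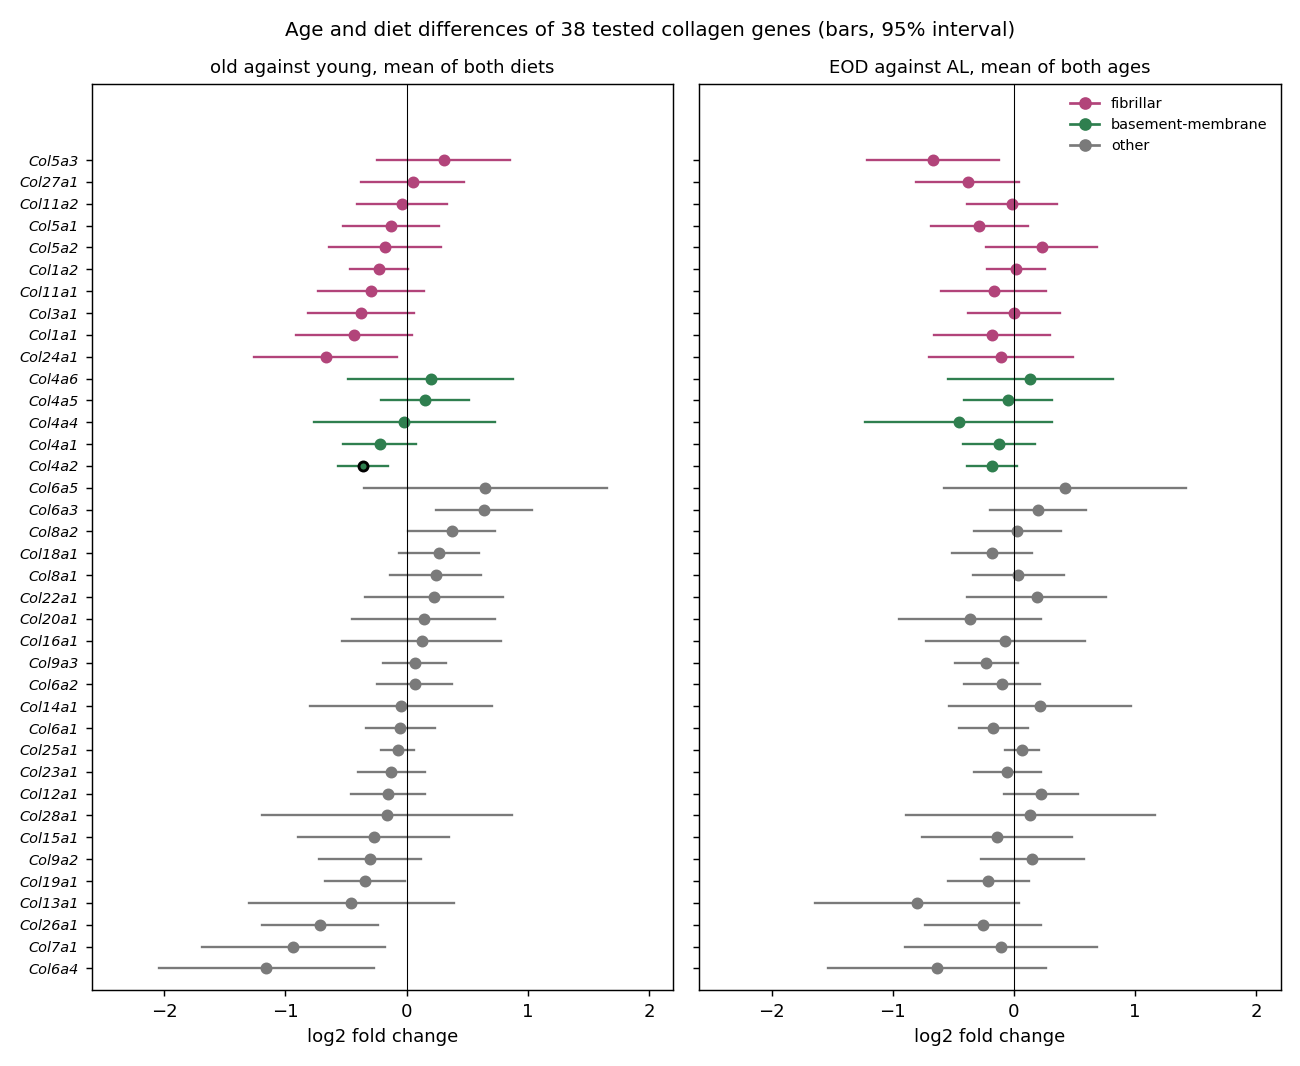
Log2 fold change of the 38 tested collagens for old against young averaged over the diets (left) and for EOD against AL averaged over the ages (right), with 95% intervals from the edgeR fit, coloured by class. The black ring marks Col4a2 at -0.36, the only one with an FDR under 0.1, and on the right no gene reached it.

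The second question was whether the diet changed the collagens. The comparison of young EOD with young AL mice used the same young AL mice as the age comparison in AL mice, and the other comparisons share groups in the same way. EdgeR called 0 of 38 collagens, and 0% of all genes tested, for EOD against AL among young mice, among old mice and on average over the ages, with 2, 0 and 1 collagens at an unadjusted p under 0.05. DESeq2 called 0 collagens in each. Without young AL mouse 3 edgeR again called 0 collagens and 0% of all genes in these comparisons, with 1, 4 and 2 collagens at an unadjusted p under 0.05.

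Col5a3, a chain of type V collagen that takes part in setting fibril diameter, had the smallest p among collagens for the diet, both among young mice and on average. Its CPM was 1.45, 1.74, 2.49 and 1.59 in young AL mice, 1.13, 0.516 and 1.05 in young EOD mice, 1.37, 1.84, 2.65 and 1.68 in old AL mice, and 1.51, 1.37, 1.75 and 1.06 in old EOD mice. The young groups did not overlap and the old ones did. These values rest on 3 to 33 counts per mouse, with 11, 3 and 8 counts in the young EOD mice. In Col5a3 the log2 fold change of EOD against AL was -0.97 (SE 0.399, 95% interval -1.80 to -0.14) in young mice and -0.67 (SE 0.263) averaged over the ages, with an edgeR FDR of 0.996 and 0.983. Without young AL mouse 3, the highest of the young mice, it was -0.76 (SE 0.376) and -0.56 (SE 0.239). In that fit Col9a3 and not Col5a3 had the smallest p among collagens in both comparisons.

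Col13a1, a transmembrane collagen of the neuromuscular junction, had the smallest p for the diet among old mice. Its CPM was 2.49, 0.919, 0.757 and 1.26 in old AL mice and 0.168, 0.910, 0.552 and 0.866 in old EOD mice, from 2 to 20 counts per mouse, and the groups overlapped. Col13a1 differed by -1.17 on the log2 scale (SE 0.570, 95% interval -2.36 to 0.01). For the collagen with the highest level, Col25a1, the interval of the diet difference averaged over the ages was -0.07 to 0.21, and for Col4a2 it was -0.39 to 0.02.

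Young EOD and young AL mice did not overlap for 3 of 44 collagens, Col17a1 higher and Col5a3 and Col7a1 lower, and for 2 of the 38 tested ones, against 4.45% of all genes tested. Old EOD and old AL mice did not overlap for Col6a6 alone, which was higher in EOD mice and not tested, so that the count was 0 of 38 tested collagens against 2.59%. Col6a6 was likewise chosen after its values were seen.

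The third question was whether the diet changed the age difference. For the interaction edgeR called 0 of 38 collagens and 0% of all genes, with and without young AL mouse 3, and DESeq2 called 0 collagens. In both edgeR fits 1 collagen, Col7a1, had an unadjusted p under 0.05. With all mice it had an interaction of +1.53 on the log2 scale (SE 0.726, 95% interval 0.02 to 3.05). For Col4a2 the interaction was -0.11 (SE 0.198, 95% interval -0.52 to 0.30) and for Col6a3 -0.53 (SE 0.381, 95% interval -1.32 to 0.26), intervals that hold 0 and differences as large as the age effects themselves.

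The signs of all 44 collagens were counted from the group means. With age 24 of 44 were lower in AL mice and 27 in EOD mice, against 51.1% and 49.2% lower among all genes with at least 10 counts. The median log2 ratio was -0.022 and -0.13, against -0.0053 and 0.0032 over all these genes. Under EOD 29 of 44 were lower in young mice and 32 in old mice, against 50.8% and 49.5%, with a median log2 ratio of -0.091 and -0.13 against -0.0033 and 0.0015. By class, 7 of 11 fibrillar collagens were lower with age in AL and 8 in EOD mice, 4 and 3 of 6 basement-membrane collagens, and 13 and 16 of 27 others. Under EOD 9 of 11 fibrillar, 5 of 6 basement-membrane and 15 of 27 other collagens were lower in young mice (9, 6 and 13 without young AL mouse 3), and 7, 5 and 20 in old mice. Across the diets 18 collagens were lower with age in both, 11 higher in both and 15 of opposite sign. This agreement was not counted over all genes, so it is no result about the collagens.

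Chains of 1 trimer were compared across the 15 mice, which share their library between the genes. Log2 CPM of Col1a1 and Col1a2 had r = 0.58 (permutation p = 0.0209) and rho = 0.51 (permutation p = 0.0582), Col4a1 and Col4a2 had r = 0.43 (p = 0.110) and rho = 0.44 (p = 0.103), and Col6a1 and Col6a2 had r = 0.53 (p = 0.0429) and rho = 0.43 (p = 0.110). Adjusted over the 3 pairs, the permutation p of r was 0.0627, 0.110 and 0.0644, so that no pair passed 0.05. Without the 2 mice farthest from the median, r was 0.50, 0.54 and 0.05, and the relation of the type VI chains rested on those mice. Within lanes 1, 2 and 3 r was 0.78, -0.18 and 0.97 for the type I pair, 0.83, -0.81 and 0.96 for the type IV pair, and 0.39, 0.63 and 0.58 for the type VI pair, so that the first and the second did not hold within lane 2. Leaving out young AL mouse 3 gave an r of 0.59, 0.57 and 0.45. For deviations of all 15 mice from their group means, r was 0.49, 0.24 and 0.58.

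Genes that make, bind and degrade collagen were listed in 8 groups, of which 93 genes were found and 86 tested. With age averaged over the diets edgeR called 3 higher and 1 lower of the 86, against 2.3% of all genes. DESeq2 also called 3 higher and 1 lower. Among 15 hydroxylating and glycosylating enzymes 1 rose, P4hb, the disulphide isomerase subunit of prolyl 4-hydroxylase (log2 fold change +0.16, SE 0.0434, edgeR FDR 0.0699). Of 7 chaperone and export genes, of 11 genes for propeptide removal and cross-linking, of 10 for breakdown and of 9 fibril partners, 0 were called by edgeR or DESeq2 (1, 0, 1 and 2 with an unadjusted p under 0.05 in edgeR). Of 15 basement-membrane partners 1 fell, Nid1, and of 12 TGF-beta genes 1 rose, Tgfb2 (+0.30, SE 0.0748, edgeR FDR 0.0482). Within AL and within EOD mice the edgeR FDR was 0.297 and 0.794 for P4hb and 0.574 and 0.273 for Tgfb2. Fits with lane or replicate number in the model are not given for P4hb, Nid1 and Tgfb2.

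Of 7 collagen receptors 1 rose, Lair1, an inhibitory receptor of immune cells that binds collagen. Its CPM was 8.92, 9.34, 6.50 and 8.70 in young AL mice, 8.21, 7.91 and 10.5 in young EOD mice, 12.9, 12.2, 11.9 and 16.6 in old AL mice, and 15.7, 11.9, 13.9 and 13.7 in old EOD mice. Every old mouse lay above every young mouse, with a log2 fold change of +0.67 (SE 0.117, edgeR FDR 0.0024). Microglia markers moved with it, with a sum of 317 to 357 CPM in young and 394 to 468 CPM in old mice and 4 of 6 called, and their part in the Lair1 difference was not tested.

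The collagen chaperone Serpinh1 had a log2 fold change with age of +0.24 (SE 0.157, edgeR FDR 0.591) and the cross-linking enzyme Lox one of +0.57 (SE 0.273, edgeR FDR 0.427). The fibril-binding proteoglycan Dcn stood at +0.31 (SE 0.130, edgeR FDR 0.338), the collagen-binding protein Sparc at +0.20 (SE 0.0725, edgeR FDR 0.226) and Tgfb1 at -0.05 (SE 0.260, edgeR FDR 0.968). For diet among young mice, among old mice, on average and for the interaction, edgeR and DESeq2 called 0 of these 86 genes (4, 4, 4 and 3 with an unadjusted p under 0.05 in edgeR).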

How the data were processed

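Whole-brain RNA of 15 mice was sequenced as 50-base single-end reads. The deposited values are raw counts per gene, which the authors made from adapter-trimmed reads with STAR (Ensembl GRCm38) and featureCounts 1.5.0-p1 (release 79 genes, primary alignments of mapping quality 5 or more, reverse strand). Genes were named by matching identifiers, and 42462 of 43629 received a symbol. Everything after the counts was computed here. Mice were grouped by the labels.

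The main test was that of edgeR 4.0.16 under R 4.3.3 (TMM, filterByExpr, quasi-likelihood test, Benjamini-Hochberg adjustment over 15864 genes, FDR under 0.1) in 1 fit of the 4 group means. Averaged comparisons are means of 2 differences, and the interaction is the age difference in EOD minus that in AL mice. Standard errors were derived from each log2 fold change and its F statistic, and intervals use the t distribution of the fit. Simulated counts with known changes were used to test the fits. Total counts ranged from 5198748 to 13610729. Counts per mouse under about 20, as for Col7a1 and Col13a1, give little precision.

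Named collagens were those past FDR 0.1, the one with the smallest p in each comparison, the 3 highest per kilobase in each class, and Col1a1, Col1a2, Col3a1, Col4a1, Col4a2, Col6a1, Col6a2, Col15a1 and Col18a1. Named pathway genes were those past FDR 0.1 and Serpinh1, Lox, Sparc, Dcn and Tgfb1. Members and lists were chosen with earlier results of these data known. Chain pairs used permutation tests with 100000 resamples (scipy 1.17.1), two-sided, on log2 CPM with 0.5 counts added. Signs used ratios of group means with 0.1 CPM added.

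Alternatives were other count filters, RLE size factors, DESeq2 1.42.0, FDR 0.05, replicate number as a block, lane as a covariate, only the groups compared, another class membership and leaving out each mouse. Leaving out young AL mouse 3 and old AL mouse 4 together was added after seeing the data. The 21 replicate pairs differed by more than sampling noise (chi-square per degree of freedom 3.01 to 16.6). Another gene lies on the same strand within 11 collagen genes, Col4a5, Col6a3, Col7a1 and Col25a1 among them, and reads shared with it were not separated. Marker lists of bone and cartilage, oligodendrocyte and astrocyte had 1 of 4, 1 of 6 and 1 of 6 tested markers called by edgeR with age averaged over the diets, all higher in old mice. Those of vascular smooth muscle, skeletal muscle, pituitary and neuron had 0 of 5, 0 of 3, 0 of 3 and 0 of 6 called by edgeR and by DESeq2 (0, 0, 0 and 1 with an unadjusted p under 0.05 in edgeR).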

Additional observations from a re-analysis of the deposited data

Results flagged for a closer look

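In groups of 4 mice a value was marked when its gap to the nearest other mouse exceeded Dixon's 95% limit. Of 60 groups of values examined, 2 were marked, and chance marks about 1 in 20. Col7a1, the anchoring-fibril chain, was 1.565 CPM in old EOD mouse 3 against 0.569 to 0.67 CPM in the other old EOD mice, from 17 counts against 5 to 8. The summed level of the other collagens was 28.44 CPM per kb in young AL mouse 2 against 32.96 to 33.82 in the other young AL mice.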

How the results depend on the processing

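Collagens called for age averaged over the diets (1, Col4a2) numbered 0 at FDR 0.05, 3 with every gene that had a count (Col6a3, Col4a2, Col6a4), 2 with at least 10 counts in every mouse and 2 by DESeq2 (Col6a3 and Col4a2 in both), and 2 without young AL mouse 3 and old AL mouse 4 (Col6a3 and Col8a2, with Col4a2 at log2 -0.35, edgeR FDR 0.118). With lane as a covariate the count stayed at 1 but the gene was Col6a3. For age in AL mice (0) the count was 1, Col6a3, with every gene, by DESeq2 and without both mice. Leaving out 1 mouse gave 0 to 1 calls in both comparisons, and the mice concerned are named beside Col4a2 and Col6a3. For age in AL mice it was old AL mouse 4, without which Col6a3 had an edgeR FDR of 0.0556. The other 5 comparisons gave 0 calls under every alternative. The share of all genes called is not given for these alternatives, apart from leaving out young AL mouse 3. A changed count is therefore no result about the collagens.

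Same-numbered mice did not deviate together (mean r -0.027 over 21 pairs, -0.11 to 0.11). With the replicate block 0 collagens were called with age averaged over the diets and Col4a2 had an edgeR FDR of 0.161. The block changed no other count. Log2 fold changes near 0 turned sign for Col11a2 (-0.15 to 0.078 with 1 mouse left out, above 0 without young AL mouse 4 or old EOD mouse 4), Col6a1 (-0.20 to 0.026, above 0 without young AL mouse 3 or old AL mouse 4, and 0.077 without both), Col6a2 (-0.0039 without old AL mouse 2, up to 0.15) and Col9a3 (-0.0012 without young AL mouse 3, up to 0.12). Leaving out 1 mouse gave r of 0.43 to 0.71 for the type I pair, 0.28 to 0.58 for type IV and 0.35 to 0.65 for type VI. Counting Col15a1 and Col18a1 as basement-membrane raised those sums to 9.12 in young AL, 8.53 in young EOD, 8.41 in old AL and 7.36 CPM per kb in old EOD mice, in the same order, and lowered the sum of the others to 31.5 in young EOD mice. The causes were not tested. Errors were larger for low collagens, as for Col7a1 with an SE of 0.491 in AL mice against 0.133 for Col4a2.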
